A study of Mus musculus with 40 samples.

Results

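Arntl, Clock, Npas2, Nr1d1, Nr1d2, Rora, Bhlhe40 and Bhlhe41 are the activators of the circadian clock and the factors that feed back on them. They were taken from the count table by identifier, and all 8 were found among 56980 listed genes and kept among the 17880 genes tested. Counts came from polyadenylated RNA. The mice were females of C57BL/6J, a common inbred strain. The sample labels give the tissue only as brain, and the series title names the medial prefrontal cortex, a frontal area with a part in reward and decision making. Every group held 5 libraries. Adult mice, which started on postnatal day 55, formed the groups antibiotics with morphine, water with morphine, antibiotics with saline and water with saline. Adolescent mice, which started on postnatal day 25, formed the same 4 groups. Antibiotics were given by mouth, and morphine was injected under the skin at 15 mg/kg for 5 days. No library came from an uninjected mouse. The antibiotics and the time of day at which tissue was taken were not stated. For clock genes, a difference between groups in that time cannot be told apart from an effect of morphine, antibiotics or age. The labels do not tie libraries to separate mice, and p-values here reflect the spread among libraries, which may be technical.

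The clock runs on a transcriptional loop found in nearly every mouse cell. BMAL1, the product of Arntl, pairs with CLOCK or with its relative NPAS2 and binds E-box motifs in the promoters of the Per and Cry genes, whose products then repress the pair. Among the targets are also Nr1d1 and Nr1d2, which encode the nuclear receptors REV-ERB alpha and REV-ERB beta. These repress Arntl through ROR response elements, where RORA, the product of Rora, activates instead. Bhlhe40 and Bhlhe41 encode DEC1 and DEC2, which are themselves induced through E-boxes and compete for them.

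Promoter windows of 300 bases, running from 250 bases before to 50 after an annotated start, were read from RefSeq sequences of build GRCm38.p6 for 7 of the 8 genes, in 10 windows. The Arntl, Nr1d1, Nr1d2 and Bhlhe41 windows are shown because each holds a motif of the loop, in capitals, and because 3 of these genes were called with morphine below, and Nr1d1 was not. Both strands were searched for the E-box CACGTG, which reads the same on both, its variant CACGTT, the REV-ERB and ROR core AGGTCA, the full ROR response element and the D-box TTATGTAA. The shown Arntl window is the second of a pair at neighbouring starts, chr7:113207261-113207560 on the plus strand. The Nr1d1 window is chr11:98775328-98775627, the Nr1d2 window chr14:18239057-18239356 and the Bhlhe41 window chr6:145865371-145865670, all on the minus strand and read 5′ to 3′ along the gene.
Arntl: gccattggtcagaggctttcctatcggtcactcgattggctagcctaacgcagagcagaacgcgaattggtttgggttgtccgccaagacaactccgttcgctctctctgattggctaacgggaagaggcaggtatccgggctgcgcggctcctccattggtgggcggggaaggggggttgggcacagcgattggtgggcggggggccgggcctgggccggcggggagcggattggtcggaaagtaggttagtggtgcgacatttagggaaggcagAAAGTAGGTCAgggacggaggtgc
Nr1d1: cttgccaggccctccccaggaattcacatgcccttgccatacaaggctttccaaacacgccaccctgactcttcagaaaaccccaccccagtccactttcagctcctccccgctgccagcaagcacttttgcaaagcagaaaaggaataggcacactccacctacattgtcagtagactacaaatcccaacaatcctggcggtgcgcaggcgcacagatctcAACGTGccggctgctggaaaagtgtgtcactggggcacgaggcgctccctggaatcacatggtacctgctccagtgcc
Nr1d2: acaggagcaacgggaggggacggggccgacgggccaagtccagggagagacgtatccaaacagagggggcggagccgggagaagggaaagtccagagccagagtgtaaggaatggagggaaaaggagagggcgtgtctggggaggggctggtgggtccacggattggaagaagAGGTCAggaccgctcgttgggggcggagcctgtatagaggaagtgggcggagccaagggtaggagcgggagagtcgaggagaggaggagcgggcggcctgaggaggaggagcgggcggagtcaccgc
Bhlhe41: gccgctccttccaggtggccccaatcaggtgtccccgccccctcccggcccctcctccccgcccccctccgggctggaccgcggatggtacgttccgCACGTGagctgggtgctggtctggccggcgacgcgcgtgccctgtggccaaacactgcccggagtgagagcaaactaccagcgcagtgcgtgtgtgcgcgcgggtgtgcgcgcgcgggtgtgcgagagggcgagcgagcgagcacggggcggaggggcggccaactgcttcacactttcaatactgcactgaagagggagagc

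In the Arntl window the capitals mark a full ROR response element that begins 27 bases after the start and includes the core AGGTCA, at 32 bases after it. Such a full element is in 0.384% of all 32851 windows of this length. In Nr1d1 they mark the E-box variant on the opposite strand, beginning 28 bases before the start. The core in Nr1d2 begins 77 bases before its start and the E-box in Bhlhe41 153 bases before its start. A Clock window holds the core 119 bases before its start, and the windows of Npas2 and Rora hold none of these letters. Shares over all windows are 7.15% for the E-box, 4.68% for its variant, 16.3% for the core and 0.938% for the D-box. A match is a description of letters, not a measured site.

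Library totals ranged from 8.64 to 12.1 M reads, so 3 counts, the limit that a count of 0 allows, stood for 0.248 to 0.347 CPM (reads of a gene per 1000000 reads of its library), for counting error only. All 8 genes lay far above this floor, with at least 222 counts (Arntl) in any library. The excitatory neuron markers Slc17a7 and Camk2a had group means of 1660 to 1890 CPM and 4120 to 4560 CPM, and the 6 striatal neuron markers summed to 104 to 124 CPM. Replicate 5 of the adolescent antibiotics-morphine group stood apart from its group on principal components of the 1000 most variable genes. It lay at -1.6 on the first and 7.4 on the second component, while the other 4 libraries of its group lay between 5.4 and 12.1 and between -6.9 and -2.3. These components carried 9.6% and 6.0% of the variance. It was not the only such library. Adult antibiotics-morphine replicate 4 (-0.0 and 7.7) and adult antibiotics-saline replicate 3 (-3.6 and 9.5) also lay outside the rest of their groups on both. Where a call of the 8 genes uses the adolescent antibiotics-morphine group, it is given also without replicate 5. Other genes were refitted without that library after their values were seen, and without no other.

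The levels of the loop spanned a wide range. Divided by the merged exon length of GENCODE M21, and averaged over 40 libraries, they ran from 113 CPM per kb for Nr1d1 through 36.3 for Bhlhe40, 19.4 for Nr1d2, 11.4 for Npas2, 6.92 for Bhlhe41, 6.72 for Clock and 5.65 for Rora to 3.97 CPM per kb for Arntl. Nr1d1 was the highest member in every group. Bhlhe41 and Clock, next to each other in this order, changed places between groups. Bhlhe41 was at 8.91 and Clock at 6.72 CPM per kb in adults given antibiotics and morphine. In adults on water and saline they were at 6.01 and 6.75. Their order rests on the exon lengths used, since without that division Clock averaged 92.2 CPM and Bhlhe41 46.5 CPM. Of group mean levels in CPM, those of Bhlhe41 spread most, with the highest 1.77 times the lowest, and those of Nr1d1 least, at 1.18 times. Rora varied most among libraries of the same group, with a median coefficient of variation of 14.2%, and Nr1d1 least, at 5.47%.

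**Figure D1:**
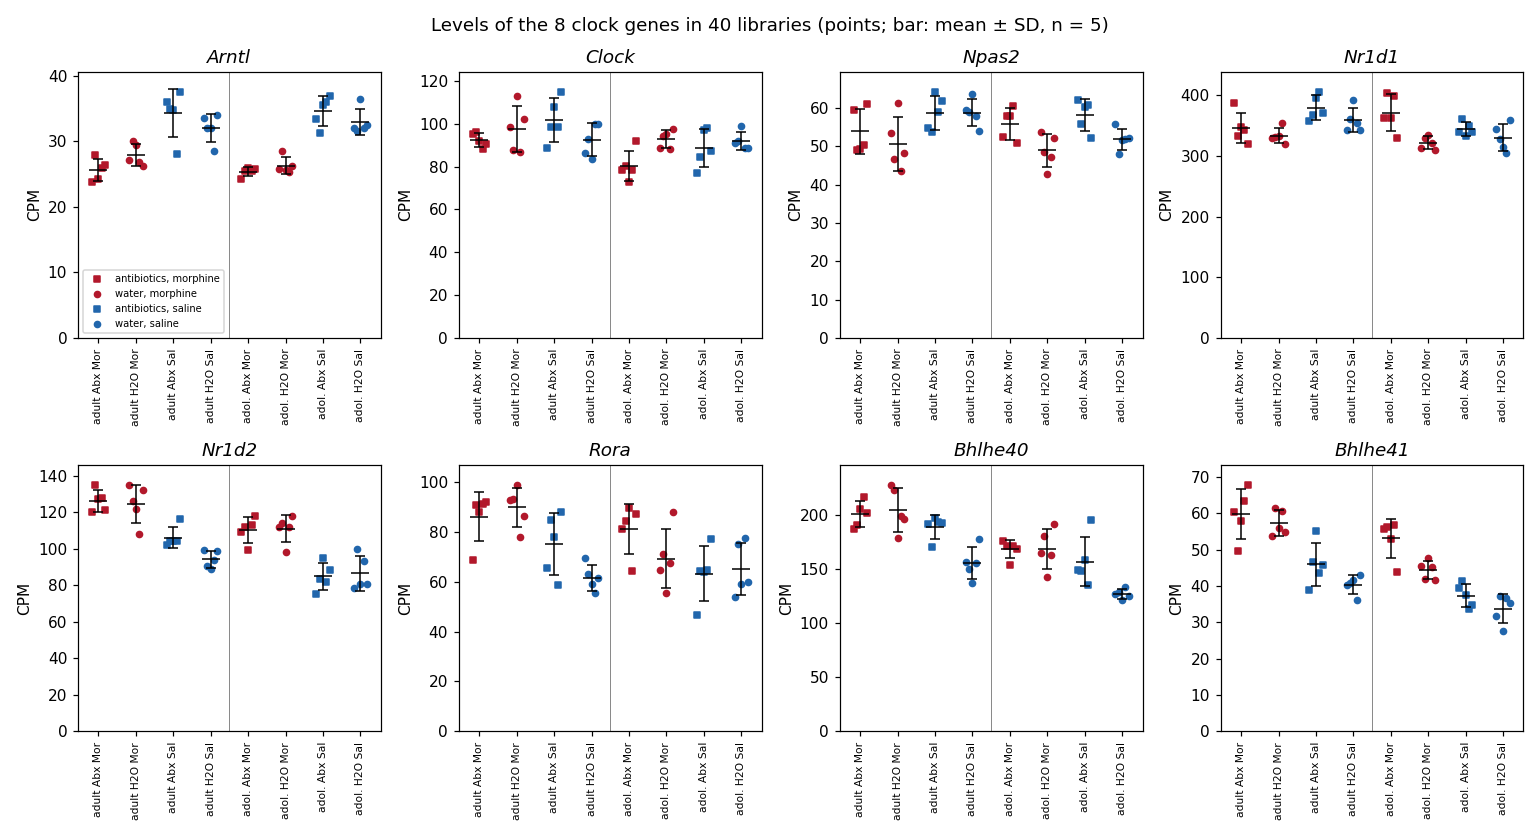
Level in CPM (vertical axis) of each gene in each library, with the mean and SD of the 5 libraries per group; morphine groups are red, saline groups blue, antibiotics squares and water circles, and adults stand left of adolescents. Arntl sits lower and Nr1d2 and Bhlhe41 higher in morphine groups, while Nr1d1, Clock and Npas2 overlap between morphine and saline at each age and drink.

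Arntl, which encodes the shared partner of CLOCK and NPAS2, fell with morphine in 3 of the 4 comparisons. Adults on antibiotics had 23.8, 27.9, 24.2, 25.9 and 26.4 CPM after morphine, against 36, 35.0, 34.8, 28 and 37.6 CPM after saline. Every morphine library was below every saline library, though the highest morphine value and the lowest saline value differed little. The log2 fold change, from edgeR as are all those below, was -0.42 ± 0.07 (SE, n = 5 against 5), with an adjusted p of 0.00125. Among adolescents on antibiotics the levels were 24.2, 25.5, 25.9, 25.5 and 25.8 CPM after morphine and 33.4, 31.2, 35.6, 36 and 37.0 CPM after saline. These groups were wide apart, by a log2 fold change of -0.45 ± 0.07 (adjusted p = 0.000112). Without replicate 5 of the morphine group it was again -0.45 (adjusted p = 0.000137).

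On water, Arntl in adolescents was at 25.8, 28.5, 25.7, 25.3 and 26.2 CPM after morphine, against 32.1, 31.6, 36.4, 32.1 and 32.5 CPM after saline. The groups did not overlap, and the log2 fold change was -0.32 ± 0.07 (adjusted p = 0.0216). This call is near the threshold: it was lost without water-saline replicate 3 (adjusted p = 0.0641) and without water-morphine replicates 1, 4 or 5 (0.0545, 0.0538 and 0.0643), as well as with no filter on low counts (0.0667) and in a fit of the compared groups alone (0.0951). Adults on water had 27.1, 30.0, 29.5, 26.9 and 26.2 CPM after morphine and 33.6, 32.0, 32.1, 28.6 and 34 CPM after saline. Here the groups overlapped through 1 low saline library, and the log2 fold change of -0.20 ± 0.07 did not pass (adjusted p = 0.248).

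Clock and Npas2, which encode the alternative partners of BMAL1, passed in none of the 4 morphine comparisons. Clock averaged 92.3 ± 3.32 CPM in adults given antibiotics and morphine, against 102 ± 9.99 CPM in adults given antibiotics and saline (SD, n = 5 each). Its log2 fold changes ran from -0.14 to 0.07. Npas2 was at 53.5, 46.6, 61.2, 43.5 and 48.2 CPM in adults on water and morphine, against 59.5, 59.0, 63.6, 57.9 and 54.0 CPM on water and saline. The ranges overlapped (log2 fold change -0.22 ± 0.08, adjusted p = 0.21). Over the mean of the 4 morphine comparisons Npas2 was at -0.12 ± 0.04, just short of the threshold (adjusted p = 0.0553), and passed it with RLE size factors (0.0426), with no filter on low counts (0.0391) and in DESeq2 (0.0337).

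Of the 2 REV-ERB genes, Nr1d2 rose with morphine in 3 of the 4 comparisons, and Nr1d1 was called in none; the difference between the genes was not tested. In adults on water, Nr1d2 was read at 135, 126, 122, 108 and 132 CPM after morphine, against 99.3, 90.6, 89.1, 93.6 and 98.8 CPM after saline. All morphine libraries were above all saline libraries, and the log2 fold change was 0.40 ± 0.07 (adjusted p = 0.000232). In adolescents on water it was at 112, 114, 98.4, 112 and 118 CPM after morphine and 78.4, 100, 80.7, 93.1 and 80.5 CPM after saline. The lowest morphine library fell just under the highest saline library, and the log2 fold change was 0.36 ± 0.07 (adjusted p = 0.0017; 0.0651 when only the compared groups were fitted).

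On antibiotics, Nr1d2 in adolescents reached 109, 112, 99.1, 113 and 118 CPM after morphine, against 75.4, 83.4, 94.9, 81.8 and 88.3 CPM after saline. The groups did not overlap, the log2 fold change was 0.38 ± 0.07 (adjusted p = 0.000353), and without replicate 5 of the morphine group it was 0.35 (adjusted p = 0.000996). Adults on antibiotics had 120, 135, 127, 128 and 121 CPM after morphine and 102, 104, 104, 104 and 116 CPM after saline. No library overlapped, yet the log2 fold change of 0.25 ± 0.07 did not pass (adjusted p = 0.111); in DESeq2 its adjusted p was 0.0484.

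Nr1d1, the more abundant REV-ERB gene, stood at 329, 331, 333, 354 and 320 CPM in adults on water and morphine, against 343, 361, 392, 355 and 343 CPM in adults on water and saline. The ranges overlapped, and the log2 fold change was -0.10 ± 0.06 (adjusted p = 0.504). Its other morphine changes were -0.13 in adults on antibiotics, -0.04 in adolescents on water and 0.11 in adolescents on antibiotics, with adjusted p between 0.326 and 0.798. Without antibiotics-morphine replicate 5 the last of these was 0.15 (adjusted p = 0.111). Nr1d1 shares 263 exon bases, 8.55% of its own, with Thra, a thyroid hormone receptor gene on the opposite strand, and reads of the shared bases cannot be told apart without a stated strand. Thra itself was not called in any comparison made here. Its log2 fold change with morphine in adults on water was -0.25 ± 0.07 (adjusted p = 0.0961).

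The ratio of the REV-ERB pair was taken in each library, without a test. For each 100 CPM of Nr1d1 there were 37.5 ± 4.31 CPM of Nr1d2 in adults on water and morphine, against 26.4 ± 2.61 on water and saline. With antibiotics the figures were 36.6 ± 3.46 after morphine and 28 ± 2.18 after saline. Adolescents showed the same order on both drinks, with 34.6 ± 3.25 after morphine and 26.4 ± 3.99 after saline on water, and 29.9 ± 3.6 after morphine and 24.7 ± 2.61 after saline on antibiotics (SD, n = 5 each). Morphine and saline libraries did not overlap in adults on water, at 30.6 to 41.2 after morphine and 22.7 to 28.9 after saline. They overlapped in the other 3 pairs, with 31 as the lowest after morphine and 31.2 as the highest after saline in adults on antibiotics. In adolescents the lowest after morphine and the highest after saline were 29.4 and 30.5 on water, and 27.3 and 28.6 on antibiotics. The highest adolescent value on antibiotics, 36.1, came from morphine replicate 5, and the other 4 libraries averaged 28.4 ± 1.24.

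The ratio of Arntl to Nr1d2 was also taken, without a test. The pair was chosen after both genes had been seen to change in opposite directions, so the ratio repeats those calls and adds no support to them. For each 100 CPM of Nr1d2, Arntl lay between 19.1 and 21.7 CPM in adults given antibiotics and morphine and between 26.9 and 35.4 in adults given antibiotics and saline. On water the adult ranges were 19.9 to 24.8 after morphine and 30.5 to 36 after saline. The adolescent ranges were 21.8 to 26.2 after morphine and 37.5 to 44.3 after saline on antibiotics, and 22.2 to 26.2 after morphine and 31.5 to 45.1 after saline on water. No morphine range touched its saline range.

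**Figure D2:**
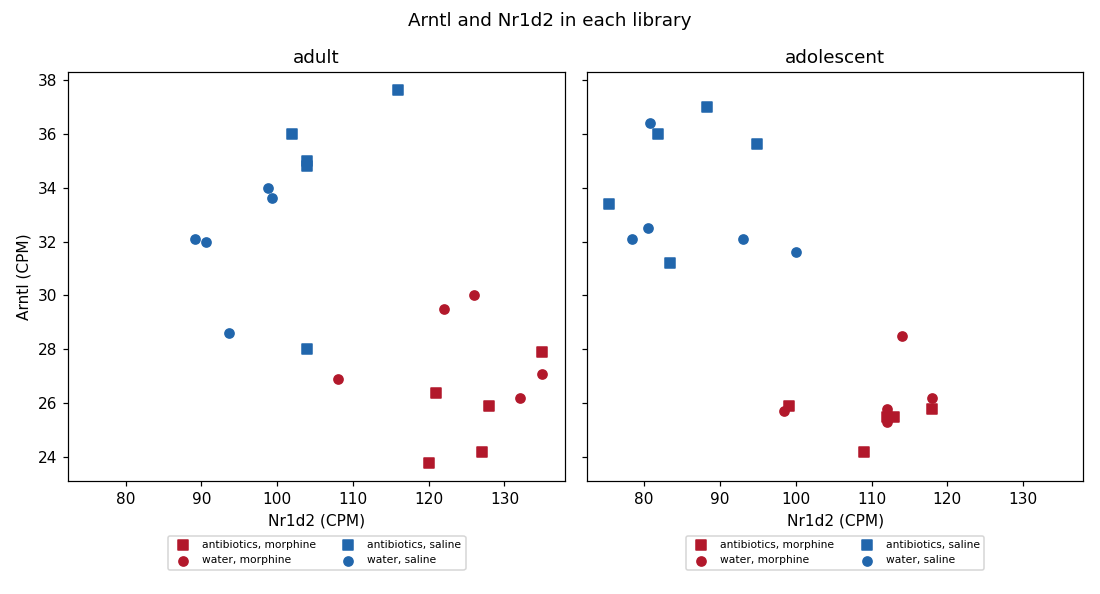
Arntl (vertical axis, CPM, not starting at 0) against Nr1d2 (horizontal axis, CPM, not starting at 0) in each library, adults left and adolescents right; morphine libraries are red, saline libraries blue, antibiotics squares and water circles. Adolescents have at most 28.5 CPM of Arntl after morphine and at least 31.2 CPM after saline, while in adults Arntl reaches 30 CPM after morphine and 28 CPM is the lowest after saline, so those overlap; Nr1d2 overlaps at both ages.

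Rora, the activating receptor gene of the loop, was called higher in 1 of the 4 comparisons, that of adults on water. It was at 92.7, 93.1, 98.9, 78.1 and 86.5 CPM after morphine, against 69.4, 63.1, 58.9, 55.3 and 61.5 CPM after saline, with no overlap. The log2 fold change was 0.54 ± 0.13 (adjusted p = 0.0354), and it held without water-saline replicate 1 or water-morphine replicate 4 but not without any of the other 8 libraries, where adjusted p ran up to 0.141. In the other 3 comparisons the log2 fold change was 0.20 in adults on antibiotics, 0.09 in adolescents on water and 0.36 in adolescents on antibiotics. The last of these had an adjusted p of 0.117 (0.0494 in DESeq2), and was 0.34 without antibiotics-morphine replicate 5 (adjusted p = 0.143). No difference in this response between ages passed: the adult minus adolescent morphine effect on Rora was 0.45 ± 0.18 on water (adjusted p = 0.38).

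Bhlhe41, the gene of DEC2, was called higher with morphine in all 4 comparisons. Adults on water had 53.7, 61.4, 56.0, 60.8 and 55.0 CPM after morphine and 40.3, 40.7, 41.7, 36.2 and 43.1 CPM after saline. The groups were clear of each other, by a log2 fold change of 0.51 ± 0.08 (adjusted p = 0.000218). Adolescents on antibiotics had 55.6, 56.4, 53.1, 56.8 and 44.0 CPM after morphine and 39.4, 41.3, 37.4, 33.7 and 34.8 CPM after saline, a log2 fold change of 0.51 ± 0.08 (adjusted p = 0.000112). The low morphine library of this group is replicate 5, and without it the log2 fold change was 0.57 (adjusted p = 1.42e-05).

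The other 2 Bhlhe41 calls were less secure. Adolescents on water had 45.4, 42.0, 47.6, 45.3 and 41.6 CPM after morphine, against 31.7, 37.3, 27.7, 36.6 and 35.3 CPM after saline, without overlap (log2 fold change 0.40 ± 0.08, adjusted p = 0.0133). That call was lost without water-saline replicates 1 or 3 (adjusted p = 0.0526 and 0.074), without water-morphine replicates 1, 3 or 4 (0.0537, 0.0533 and 0.054) and in a fit restricted to the compared groups (0.0669). Adults on antibiotics had 60.5, 49.7, 57.9, 63.4 and 67.9 CPM after morphine and 38.9, 46.5, 55.2, 43.7 and 45.7 CPM after saline. These overlapped (log2 fold change 0.38 ± 0.08, adjusted p = 0.0224), and the call was lost without antibiotics-saline replicates 1, 2, 4 or 5, without antibiotics-morphine replicates 4 or 5 (adjusted p up to 0.138) and in a fit restricted to the compared groups (0.0839). A transcript model on the opposite strand, Gm43909, covers 1280 exon bases of Bhlhe41, 19% of its own. It had 7243 counts over all libraries, and its change with morphine is not given here. Reads of the shared bases cannot be told apart without a stated strand.

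Bhlhe40, the gene of DEC1, was called higher with morphine on water at both ages. In adults it was at 228, 223, 179, 199 and 196 CPM after morphine, against 157, 150, 137, 156 and 178 CPM after saline. In adolescents it was at 165, 181, 143, 163 and 192 CPM after morphine, against 127, 129, 121, 133 and 125 CPM after saline. Neither pair of groups overlapped, with log2 fold changes of 0.40 ± 0.07 (adjusted p = 0.00215) in adults and 0.41 ± 0.07 (adjusted p = 0.00126) in adolescents. On antibiotics the levels were 187, 191, 206, 217 and 202 CPM after morphine and 192, 170, 197, 194 and 193 CPM after saline in adults. Adolescents on antibiotics had 176, 171, 154, 171 and 169 CPM after morphine and 149, 148, 158, 135 and 195 CPM after saline. Here the groups overlapped at both ages, and the log2 fold changes of 0.08 and 0.10 did not pass (adjusted p = 0.899 and 0.54). In adolescents on antibiotics it was also 0.10 without antibiotics-morphine replicate 5 (adjusted p = 0.533).

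**Figure D3:**
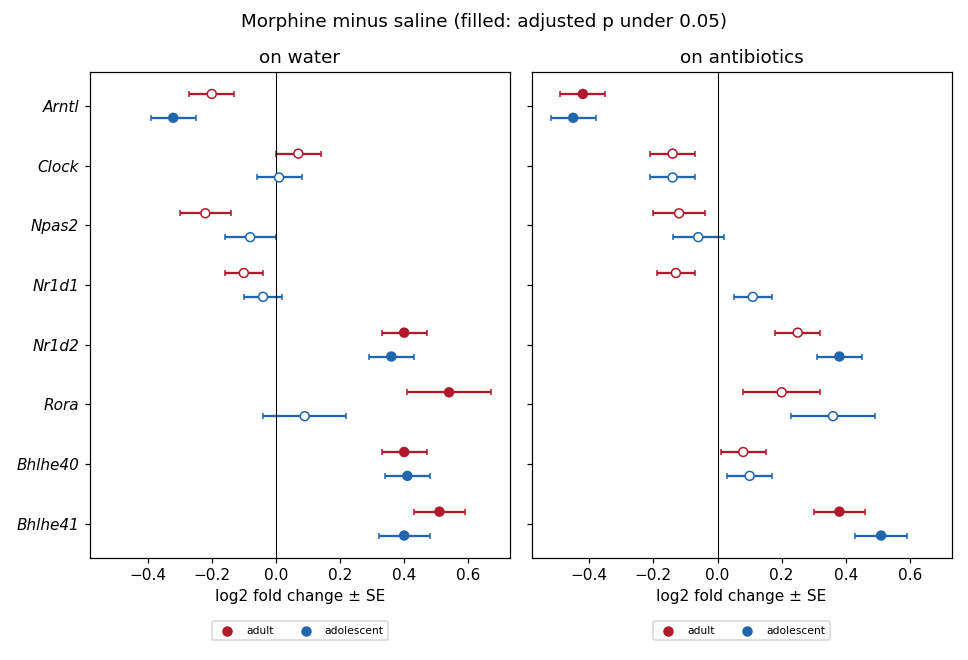
Morphine minus saline log2 fold change from edgeR with its SE (horizontal axis) for each gene, on water (left) and on antibiotics (right), adults red above adolescents blue; filled points had an adjusted p under 0.05. Bhlhe41 is filled in all 4 comparisons, Arntl and Nr1d2 in 3, Bhlhe40 in both on water, Rora in adults on water, and Clock, Npas2 and Nr1d1 in none.

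Counted over the 8 genes, morphine called 4 in adults on water, where 0.475% of all genes tested were called, and 2 in adults on antibiotics, where 0.213% were. In adolescents it called 4 on water, against 0.319% of all genes, and 3 on antibiotics, against 2.92% (3 and 5.31% without antibiotics-morphine replicate 5). The 4 on water in adolescents became 1 when the other groups were left out of the model and 2 without water-saline replicate 3 or without water-morphine replicates 1 or 4. The 2 in adults on antibiotics became 1 with that model, without antibiotics-saline replicates 1, 2, 4 or 5 and without antibiotics-morphine replicates 4 or 5. All called members except Arntl were higher after morphine. In the mean of the 4 morphine comparisons, with 4.35% of all genes called, 5 members passed: Arntl at -0.35 ± 0.04, Nr1d2 at 0.35 ± 0.03, Rora at 0.30 ± 0.06, Bhlhe40 at 0.25 ± 0.04 and Bhlhe41 at 0.45 ± 0.04 (adjusted p from 1.55e-11 to 0.00318). These 5 calls held without any single one of the 40 libraries. The median log2 fold change over all genes in these comparisons lay between -0.005 and 0.012.

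Other genes of the clock gave the setting of these changes, from lists drawn up with earlier results of these data known. Of the 6 E-box repressors, which act on the pair of BMAL1 and CLOCK, 3 rose with morphine in adults on water (Per2, Cry1 and Ciart) and 4 in adults on antibiotics (with Per3). In adolescents 2 rose on water (Per2 and Cry1) and all 6 on antibiotics, Per1 and Cry2 included. Per2 rose by 0.68 ± 0.15 in adults and 0.98 ± 0.15 in adolescents on water (log2 fold change, adjusted p = 0.0228 and 0.000403). Dbp, Tef and Hlf, activators that bind D-boxes, rose in all 4 comparisons, Dbp by 0.58 to 0.72. Nfil3, which represses at D-boxes, fell by 0.42 in the mean of the 4 comparisons (adjusted p = 0.00214) and passed in none of them alone.

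Among relatives and cofactors of the loop, Arntl2, Rorb, Ncor1, Hdac3 and Ppargc1a were called in none of the 4 morphine comparisons with all libraries. Of 10 kinases, ligases and other modifiers of clock proteins, 2 rose in adolescents on antibiotics and 0 in the other 3 comparisons. These were Csnk1e, a kinase of the PER proteins, by 0.21 ± 0.05 (adjusted p = 0.0202) and Usp2, a deubiquitinase, by 0.22 ± 0.06 (adjusted p = 0.0378). The clock outputs Wee1 and Nampt were not called.

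Genes induced by neuronal activity moved with the same groups. Of 12 listed, 10 fell with morphine in adults on water (median log2 fold change of the list -1.01), 2 in adults on antibiotics (median -0.43), 6 in adolescents on water (median -0.78) and 5 in adolescents on antibiotics (median -0.64). Arc, a synaptic activity gene, fell in all 4, by 1.01 to 1.42 on the log2 scale. Their part in the changes of the 8 clock genes was not tested. Among 47 cell type markers, 1 was called in any of the 4 morphine comparisons, the striatal gene Ppp1r1b in adolescents on antibiotics (0.30 ± 0.09, adjusted p = 0.0476). In the mean of the 4 comparisons 5 of the 47 were called, with Tbr1 (excitatory neurons) and Ppp1r1b higher and Sst (GABAergic neurons), Cldn5 (endothelium) and Rgs9 (striatal neurons) lower; their part in the results was not tested. Without antibiotics-morphine replicate 5, the repressor, D-box, modifier and activity genes called in adolescents on antibiotics were the same. Also called then were Arntl2, a BMAL1 relative, higher by 0.68 (adjusted p = 0.0241), and Neurod6, an excitatory marker, lower (-0.49, adjusted p = 0.0297). In tissue RNA, fewer cells of a type and less RNA per cell cannot be told apart.

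Whether antibiotics altered the morphine response was tested as an interaction, which uses all 4 groups of an age. None of the 8 genes passed in edgeR in adults, where 0% of all genes did, or in adolescents, where 1.24% did. Of the 7 relatives and cofactors of the loop, 1 passed in adolescents, Arntl2, with a positive interaction. Without adjustment 3 members had p under 0.05 in adults and 1 in adolescents, and DESeq2 called 0 at both ages. Of all 17880 genes, 1214 in adults and 3027 in adolescents had an unadjusted p under 0.05. The interaction of Bhlhe40 had the same size at both ages, -0.31 ± 0.10 in adults (adjusted p = 0.529) and -0.31 ± 0.11 in adolescents (adjusted p = 0.112). In adolescents it passed with no filter on low counts (adjusted p = 0.0417), and without antibiotics-morphine replicate 5 its adjusted p was 0.0865. Whether the response differed by age was tested on each drink, and no member passed on water, where 0% of all genes did, or on antibiotics, likewise at 0%. Unadjusted p was under 0.05 for 1 member on each drink, and 0 members were called by DESeq2 on either. On water 1788 of all 17880 genes had such an unadjusted p, and on antibiotics 1151.

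Antibiotics themselves were compared with water under each injection. At each age the comparison under saline shares its water-saline libraries with morphine on water and its antibiotics-saline libraries with morphine on antibiotics. The comparison under morphine shares its water-morphine libraries with morphine on water and its antibiotics-morphine libraries with morphine on antibiotics. Under morphine, adolescents showed 2 members higher, with 7.56% of all genes called. Nr1d1 was at 362, 404, 363, 399 and 329 CPM on antibiotics, against 313, 330, 335, 322 and 309 CPM on water. The 2 ranges overlapped through replicate 5 of the antibiotics group (log2 fold change 0.21 ± 0.06, adjusted p = 0.0157). Without that library it was 0.25 (adjusted p = 0.00236), while without antibiotics-morphine replicates 2 or 4 the call was lost (0.0644 and 0.0504). Thra changed by 0.11 ± 0.07 in this comparison (adjusted p = 0.325).

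Bhlhe41 was the other member higher on antibiotics in these adolescents, with 55.6, 56.4, 53.1, 56.8 and 44.0 CPM, against 45.4, 42.0, 47.6, 45.3 and 41.6 CPM on water. The log2 fold change was 0.26 ± 0.08 (adjusted p = 0.0372), and 0.32 without replicate 5 (adjusted p = 0.00622). Leaving out water-morphine replicates 2 or 5, or antibiotics-morphine replicates 1, 2, 3 or 4, ended the call, with adjusted p up to 0.105. Clock was lower by 0.21 in the same comparison without passing (adjusted p = 0.059), at 78.5, 80.2, 72.6, 78.5 and 91.8 CPM on antibiotics and 88.8, 94.1, 95.3, 88.1 and 97.7 CPM on water. Without replicate 5 its log2 fold change was -0.26 (adjusted p = 0.0131), and it also passed in a fit of only these groups (0.0431). Of the 7 relatives and cofactors of the loop, 1 was called in this comparison, Arntl2, which was higher on antibiotics. The astrocyte markers Aqp4 and S100b, 2 of 6, and the microglial marker C1qa, 1 of 5, were lower here. So was Neurod6, 1 of 5 excitatory markers (-0.55 ± 0.13, adjusted p = 0.00891). Ppp1r1b, 1 of 6 striatal markers, was higher (0.49 ± 0.09, adjusted p = 0.000271). The median log2 fold change of the 6 striatal markers was -0.08 without replicate 5. Without replicate 5 the microglial marker P2ry12 was called lower too, and 12.6% of all genes were called. The summed astrocyte markers ranged from 760 to 953 CPM on antibiotics and from 875 to 998 CPM on water; their part in these results was not tested.

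Under saline, no member was called for antibiotics in adults, with 0.0503% of all genes called, or in adolescents, with 0.0391%. Unadjusted p was under 0.05 for 4 members in adults, with 0 called by DESeq2, and for 2 in adolescents, with 1 called by DESeq2, Bhlhe40 (0.0455). Over all 17880 genes, 1803 in adults and 1744 in adolescents had an unadjusted p under 0.05. In adolescents Bhlhe40 had 149, 148, 158, 135 and 195 CPM on antibiotics, against 127, 129, 121, 133 and 125 CPM on water. The groups did not overlap, with a log2 fold change of 0.31 ± 0.08 (adjusted p = 0.0953; 0.00293 with no filter on low counts). In adults it had 192, 170, 197, 194 and 193 CPM on antibiotics and 157, 150, 137, 156 and 178 CPM on water (0.28 ± 0.07, adjusted p = 0.119; 0.0132 with no filter). Under morphine no member was called in adults, where 0.028% of all genes were, 0 had an unadjusted p under 0.05 and 0 were called by DESeq2. There 1434 of all 17880 genes had an unadjusted p under 0.05.

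In the mean of the 4 antibiotics comparisons, with 7.5% of all genes called, 3 members were higher: Nr1d1 by 0.10 ± 0.03 (adjusted p = 0.0211), Bhlhe40 by 0.14 ± 0.04 (adjusted p = 0.015) and Bhlhe41 by 0.16 ± 0.04 (adjusted p = 0.00995). These 3 calls held without any single one of the 40 libraries. The mean of Bhlhe40 joins unlike parts, at 0.28 in adults and 0.31 in adolescents under saline. Under morphine its log2 fold change was -0.03 in adults and 0.00 in adolescents (adjusted p = 0.957 and 0.982). Npas2, at 0.11 ± 0.04, did not pass (adjusted p = 0.0594; 0.0462 with RLE size factors and 0.0365 in DESeq2). Arntl had a mean change of 0.00 ± 0.04. Without adolescent antibiotics-morphine replicate 5, 10.4% of all genes were called and Npas2 passed (0.12, adjusted p = 0.0345). In this mean 3 of 6 astrocyte markers (Aqp4, Aldh1l1 and S100b), the microglial marker C1qa and 5 of 12 activity genes (Fos, Jun, Npas4, Btg2 and Ier2) were lower. Vip, 1 of 6 GABAergic markers, and Ppp1r1b, 1 of 6 striatal markers, were higher. The median log2 fold change of the 6 striatal markers, without that library, was -0.10. Without that library Neurod6 and 3 more of the 5 microglial markers (Cx3cr1, P2ry12 and Tmem119) were lower as well. Their part in the 3 calls was not tested.

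Adults were compared with adolescents in each treatment, on the same libraries as above. The labels do not say whether the ages were handled together, so age and any batch that goes with it cannot be told apart. Given antibiotics and saline, 3 members were higher in adults, with 5.97% of all genes called. Nr1d2 was at 102, 104, 104, 104 and 116 CPM in adults, against 75.4, 83.4, 94.9, 81.8 and 88.3 CPM in adolescents, with no overlap (0.32 ± 0.07, adjusted p = 0.00195), and this held without any of the 10 libraries. Bhlhe40 was higher by 0.27 ± 0.07 (adjusted p = 0.0197) and Bhlhe41 by 0.30 ± 0.08 (adjusted p = 0.0238). The Bhlhe40 call was lost without adult replicates 3 or 5 or adolescent replicates 1, 2 or 4 (adjusted p up to 0.0908), and that of Bhlhe41 without adult replicates 3 or 5 or adolescent replicates 4 or 5 (up to 0.146).

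On water with morphine, 2 members were higher in adults, with 0.928% of all genes called. Bhlhe41 was at 53.7, 61.4, 56.0, 60.8 and 55.0 CPM in adults, against 45.4, 42.0, 47.6, 45.3 and 41.6 CPM in adolescents, without overlap (0.37 ± 0.08, adjusted p = 0.0105; 0.0508 without adolescent replicate 2). Bhlhe40 was higher by 0.28 ± 0.07 (adjusted p = 0.043), a call lost in a fit of only these groups (0.0975) and without adult replicates 1, 2 or 5 or adolescent replicates 1, 2, 3 or 4, where adjusted p ran up to 0.213. No member was called on water with saline, with 0.257% of all genes called, or on antibiotics with morphine, with 1.04%. Unadjusted p was under 0.05 for 4 members in each of these, and for 1788 and 2644 of all 17880 genes. Of the members 1, Bhlhe40, was called by DESeq2 (0.0358 and 0.0499). Its log2 fold change was 0.29 ± 0.08 on water with saline (adjusted p = 0.0775; 0.0463 without adult replicate 3) and 0.25 ± 0.07 on antibiotics with morphine (adjusted p = 0.0695; 0.0636 without adolescent replicate 5). In the last comparison Clock passed without adolescent replicate 5 (0.25, adjusted p = 0.0443) and had 0.20 ± 0.07 with it (adjusted p = 0.15). In log2 fold change, Bhlhe40 in adults lay 0.25 to 0.29 above adolescents in the 4 treatments, while Arntl differed by -0.04 to 0.09.

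**Figure D4:**
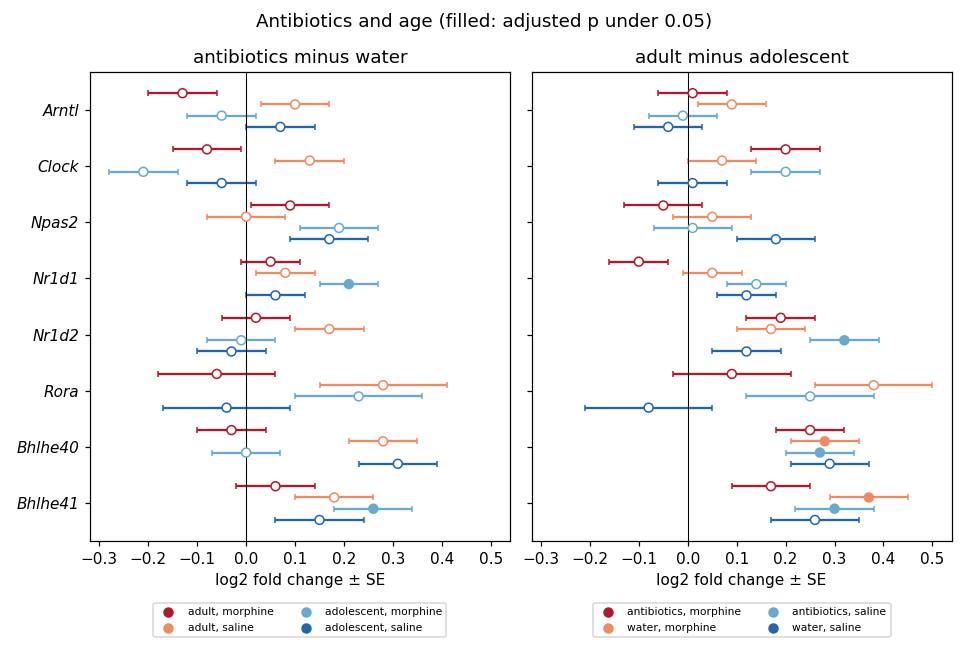
Log2 fold change from edgeR with its SE (horizontal axis) for each gene, antibiotics minus water (left, by age and injection) and adult minus adolescent (right, by drink and injection); filled points had an adjusted p under 0.05. Filled points are Nr1d1 and Bhlhe41 on the left, and Nr1d2, Bhlhe40 and Bhlhe41 on the right.

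Apart from group differences, 3 of 28 pairs of members were correlated between libraries of the same group, 2 positively and 1 negatively. The 28 pairs were tested over 40 libraries after group means were taken away. P-values came from permuting libraries within groups and were adjusted over the 28 pairs. Members of a pair share library and depth, and pairs of other genes were not tested. Nr1d2 and Rora had r = 0.60 (adjusted permutation p = 0.0132) and rho = 0.56 (0.015). Without the 2 libraries farthest from the median in Nr1d2, chosen by that gene alone, r was 0.55 (adjusted permutation p = 0.048). Nr1d2 and Bhlhe40 had r = 0.50 (adjusted permutation p = 0.0295) and rho = 0.55 (0.0134). Without the same 2 libraries r was 0.57 (adjusted permutation p = 0.0392). Both relations were positive in each age, at r = 0.51 in adults and 0.64 in adolescents for Nr1d2 with Rora, and 0.40 in adults and 0.57 in adolescents for Nr1d2 with Bhlhe40. Nr1d1 and Rora had r = -0.49 (adjusted permutation p = 0.0295) but rho = -0.42 (0.0869). This pair was no longer past the threshold without the 2 libraries farthest in Nr1d1, 1 of which is adolescent antibiotics-morphine replicate 5 (r = -0.42, adjusted permutation p = 0.112). Arntl and Nr1d2, which parted with morphine, had r = 0.16 within groups (adjusted permutation p = 0.515).

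**Figure D5:**
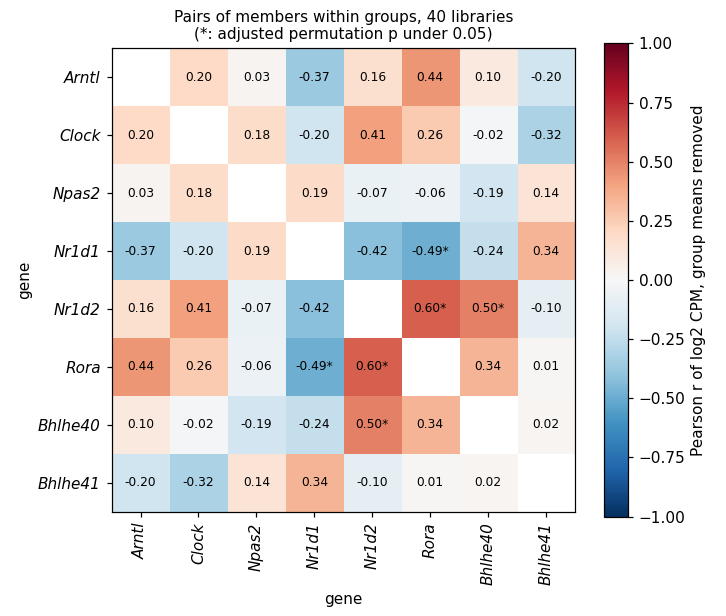
Pearson r of log2 CPM between each pair of genes over 40 libraries after group means were removed (values printed on the colours); a star marks an adjusted permutation p under 0.05. The 3 starred pairs are Nr1d2 with Rora, Nr1d2 with Bhlhe40, and Nr1d1 with Rora.

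Over all 40 libraries, group differences included, the genes whose log2 CPM was most like each member were sought among the 13546 genes that averaged at least 1 CPM. These correlations describe libraries that share their treatment and depth, and carry no test. Arntl was most like Csrnp1 (r = 0.80), Arc (0.75) and Gadd45b (0.73), and most opposed to Tef (-0.86), Dbp (-0.84) and Hrh3 (-0.83). Nr1d2 was most like Hlf (0.93) and most opposed to Cdkn1a (-0.87), a cell cycle inhibitor gene, to which Bhlhe41 was also most opposed (-0.80). Nr1d1 was most like Necab2 (0.77), Tnk2 (0.73) and Slc44a5 (0.68), and most opposed to Mical2 (-0.76), Usp45 (-0.73) and Eps15 (-0.72), with no clock gene among them. Clock was most like Mindy2 (0.84), Npas2 like Gaa (0.66), Rora like Kcnq5 (0.86), Bhlhe40 like Ankrd33b (0.84) and Bhlhe41 like Camkk1 (0.85). The most opposed genes were Bcas1 for Npas2 (-0.66), Cotl1 for Rora (-0.81) and Zfp580 for Bhlhe40 (-0.78).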

How the data were processed

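Polyadenylated RNA of 40 libraries in 8 groups of 5 was analysed from raw gene counts deposited by the authors, not normalized. STAR 2.7.10a, DESeq2 and build mm10 are named in the submitters' processing notes, without a role for DESeq2; neither the annotation behind the counts nor strand handling is given in the sources used here. Identifiers were matched without version to GENCODE M21 symbols (91.4%), and with version only 35 of 56980 matched, so that annotation served for names, exon lengths and overlaps alone. By it Arntl, Rora and Bhlhe40 share 33 to 118 exon bases with antisense genes. No row lacked a gene.

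Counts were filtered with filterByExpr (minimum count 10, minimum total 15), scaled by TMM and fitted with edgeR 4.0.16 in R 4.3.3 (robust quasi-likelihood, all 40 libraries, a coefficient for each group); at least 99.75% of the counts of each library were kept. Each of 18 contrasts was tested by a two-sided F test with Benjamini-Hochberg adjustment over 17880 genes, and called at an adjusted p under 0.05. SE is the size of the log2 fold change over the square root of F. Levels are CPM with TMM sizes, and their logs used a prior count of 2. Pairs of genes were tested with 100000 permutations within groups. The scripts were tested on simulated data. Replicates differed by a chi-square per gene of 2.2 to 16.2, so none was a duplicate. Alternatives were RLE factors, no filter, DESeq2 1.42.0, only the compared groups, a replicate block and leaving out each library.

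The members, the gene lists and the rules for named genes were chosen with earlier results of these data known. Named genes were the 8 members, the listed clock, activity and marker genes, and those most like a member. A few of these genes are not reported here. Thra, outside this rule, is named for its overlap with Nr1d1.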

Additional observations from a re-analysis of the deposited data

Results flagged for a closer look

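A library was singled out where the gap between it and its nearest neighbour took up more of the range of its 5 libraries than Dixon's 95% limit allows. Of 64 group and gene pairs 7 did so, and chance alone would pick about 1 in 20. Their causes were not tested.

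Arntl had 3 of them, all in adolescents. Antibiotics-morphine replicate 1 was the lowest of its group at 24.2 CPM, with the nearest library at 25.5 CPM. Water-morphine replicate 2 was the highest at 28.5 CPM, with the next at 26.2 CPM, and water-saline replicate 3 the highest at 36.4 CPM, with the next at 32.5 CPM. The last of these bears on a call, since Arntl with morphine on water in adolescents had an adjusted p of 0.0641 without it.

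In adults given antibiotics and saline, Nr1d2 was highest in replicate 5 at 116 CPM, with the next at 104 CPM, and Bhlhe40 was lowest in replicate 2 at 170 CPM, with the nearest at 192 CPM. In adults given antibiotics and morphine, Rora was lowest in replicate 1 at 68.7 CPM, with the nearest at 88.0 CPM. In adolescents given antibiotics and morphine, Bhlhe41 was lowest in replicate 5 at 44.0 CPM, with the nearest at 53.1 CPM. That library also stood apart from its group on the principal components.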

How the results depend on the processing

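Of 144 log2 fold changes of the 8 genes, 28 were called, and none of these changed sign in the 652 alternative fits that gave it a value. With no filter on low counts 1 member was called for antibiotics under saline at each age, for the interaction in adolescents, and for adults against adolescents on water with saline and on antibiotics with morphine. DESeq2 called 1 for antibiotics under saline in adolescents and for the same 2 age comparisons. Fitting the compared groups alone, 1 member was called for morphine on water in adolescents, morphine on antibiotics in adults, and age on water with morphine and on antibiotics with morphine. Leaving out single libraries gave 2 to 4 called members for morphine on water in adolescents and 3 to 4 in adults, 1 to 2 for morphine on antibiotics in adults and 0 to 3 for antibiotics under morphine in adolescents. For age it gave 0 to 1 on water with saline, 0 to 2 on water with morphine, 1 to 4 on antibiotics with saline and 0 to 1 on antibiotics with morphine.

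Pairing by replicate number was checked between groups of the same age, after group means were taken away. Libraries with the same number had a median correlation of 0.01 (-0.16 to 0.2, 6 of 60 pairs over 0.1). Those with different numbers had a median of 0 (-0.16 to 0.25, 12 of 240 pairs over 0.1). Of 40 libraries, 10 were closest to their own number. The check does not settle whether the numbers pair libraries. With the replicate block, 1 of the 144 results changed its call, Npas2 in the mean of the 4 morphine comparisons (-0.12, adjusted p = 0.0493).

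Counts of all called genes moved more. Over the alternatives other than single libraries they ran from 85 to 213 for morphine on water in adults and 21 to 137 in adolescents, and from 27 to 61 on antibiotics in adults. For antibiotics they ran from 9 to 78 under saline in adults, 4 to 70 in adolescents and 3 to 44 under morphine in adults, and for the interaction from 0 to 15 in adults and 130 to 485 in adolescents. Adults against adolescents gave 19 to 139 on water with saline, 163 to 380 on water with morphine and 178 to 445 on antibiotics with morphine, and the age difference in the morphine effect 0 to 55 on water and 0 to 13 on antibiotics. Every member had at least 222 counts in each library, and SEs of 0.06 to 0.13 for 2 groups leave small log2 changes undetected. The means of 4 comparisons use every group, so no restricted fit was made for them.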
